A study of Mus musculus with 20 samples.

Results

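The effect of pembrolizumab on tumour-infiltrating CD8+ T cells was measured across both levels of a second agent, ABL503. All 20 libraries of the series entered the comparison, 10 made with pembrolizumab and 10 without, and the members were chosen by treatment label alone. The 5 Pembrolizumab libraries were set against the 5 Control libraries, the 5 Combination libraries (pembrolizumab and ABL503 together) against the 5 ABL503 libraries, and the 2 differences were averaged with equal weight. Every mouse was C57BL/6 with human PD-1, PD-L1 and 4-1BB and carried an MC38 tumour (from mouse colon) that overexpressed human PD-L1. Treatment began at a mean tumour volume of 150 to 200 mm3, and CD8+ cells were sorted on day 4. The human receptors and the human ligand on the tumour were thus shared by all 4 groups, controls included, and the labels do not give the age or sex of the mice or the content of the Control treatment. Whether each library was its own mouse is also not stated, and the p-values therefore measure only the spread between these samples.

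Pembrolizumab binds PD-1 and blocks it; PD-1 is a receptor that restrains T cells when it meets PD-L1 on tumour or myeloid cells. ABL503 is bispecific, with one arm for PD-L1 and another for 4-1BB, a costimulatory receptor of activated T cells. CD8+ T cells kill through perforin and granzymes stored in granules, and in tumours they range from stem-like cells, which keep the factor TCF1, to effector and exhausted cells with strong killing genes and inhibitory receptors.

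Values were FPKM, fragments per length of gene and size of library, and a change is a difference of log2(FPKM + 1), which understates the fold change of genes with low values. A gene was tested if 5 or more libraries reached 1 FPKM, which left 11794. Column sums ran from 612570 to 654333 FPKM with pembrolizumab and from 575918 to 643592 without. The read depth is not known, so precision rests on the spread between libraries. Cd8a stood at 308 to 458 FPKM with pembrolizumab and 224 to 353 without, while Cd4 stayed at or below 0.544 and 0.630. When the 500 most variable genes were reduced to principal components, the first held 17.1% of their variance; on it, Combination 2 and Combination 5 stood apart at -20.4 and -25.9, where the other 8 libraries with pembrolizumab lay between -10.9 and 1.80 and the 10 without lay between 0.267 and 18.0.

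Of the 11794 genes, 1597 (13.5%) passed a Benjamini-Hochberg adjusted p under 0.05 in limma, 733 higher (6.22%) and 864 lower (7.33%) with pembrolizumab. The median change over all genes tested was -0.03 on the log2 scale. The split moved to 552 higher and 1083 lower when libraries were rescaled to equal sums. Among the genes that passed, the median size of the change was 0.41, and 79 changed by at least 1. Without Combination 2 and Combination 5 the count was 868.

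The main effect averages 2 comparisons that share no library. Both came from the same fit, in which the 4 groups share 1 estimate of the spread, so their p-values are not independent. Between Pembrolizumab and Control 655 genes passed (5.55%), 327 higher (2.77%) and 328 lower (2.78%), and between Combination and ABL503 534 passed (4.53%), 270 higher (2.29%) and 264 lower (2.24%). Genes that passed in both numbered 139, which is 21.2% of the first set and 26% of the second, and 136 of them had the same sign. Over all tested genes 63.1% had the same sign. Of the 1597 genes of the main effect, 136 passed in both comparisons, 411 only between Pembrolizumab and Control, 301 only between Combination and ABL503 and 749 in neither. Across genes, which are not independent replicates, the 2 changes had a Pearson r of 0.36. Without Combination 2 and Combination 5 the count between Combination and ABL503 was 124. Without 1 library it was 339 (Combination 2), 355 (Combination 5), 271 (ABL503 2), 351 (ABL503 3) or 329 (ABL503 4), and between Pembrolizumab and Control it was 383 without Pembrolizumab 1 and 421 without Control 1.

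**Figure D1:**
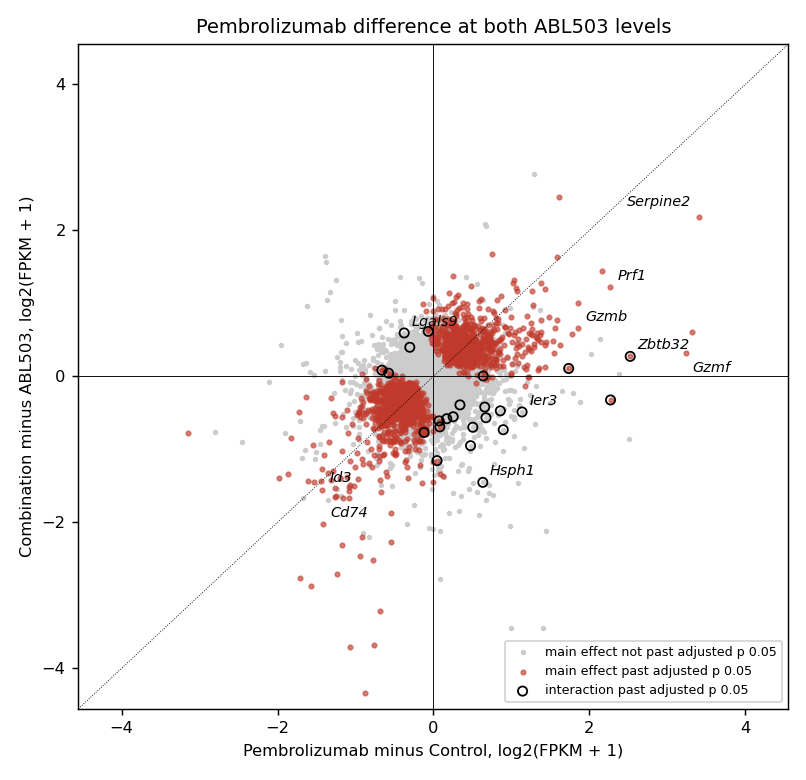
Change of each tested gene between Pembrolizumab and Control (horizontal) and between Combination and ABL503 (vertical), both as differences of log2(FPKM + 1); red points passed in the main effect, rings passed the interaction, and the dotted line marks equal changes. Serpine2, Prf1, Gzmb, Id3 and Cd74 lie on the same side of 0 in both, while Hsph1 is at 0.63 and -1.45 and Lgals9 at -0.38 and 0.60.

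Killing genes rose. Prf1, the pore-forming protein perforin (chromosome 10, 61297751 to 61304684, GRCm38), had 20.7 to 40.2 FPKM (median 31.4) with pembrolizumab, against 3.83 to 18.9 FPKM (median 8.42) without. It averaged 33.0 ± 4.34 FPKM in Pembrolizumab against 6.30 ± 2.27 in Control, and 28.5 ± 4.88 in Combination against 12.0 ± 4.095 in ABL503 (SD, n = 5 each). Every library with pembrolizumab was above every library without, and the main effect was 1.75 (SE 0.15, limma adjusted p = 1.61e-06). Gzmb, the protease granzyme B (chromosome 14, 56258836 to 56262334), had 1401 to 2836 FPKM (median 2103) with pembrolizumab, against 385 to 1266 FPKM (median 851) without, again with no overlap. Its main effect was 1.43 (SE 0.14, limma adjusted p = 4.90e-06). In bulk RNA, a change in the share of cells that express a gene and a change in RNA per cell cannot be told apart.

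Groups that do not overlap at all were found for 47 of 11794 genes (0.399%), 16 higher (0.136%) and 31 lower (0.263%) with pembrolizumab. Beside Prf1 and Gzmb, the higher genes included Tnfrsf9, which encodes 4-1BB, a target of ABL503. These mice carry human 4-1BB, and human PD-1 and PD-L1 too, and whether reads of such human sequence count in the mouse genes was not tested. It had 184 to 320 FPKM (median 245) with pembrolizumab, against 97.4 to 183 FPKM (median 135) without (0.91, SE 0.08, limma adjusted p = 2.55e-06). The highest library without pembrolizumab, at 183 FPKM, lay just under the lowest with it, at 184 FPKM. Ybx3, a cold-shock domain protein that binds nucleic acids, had 176 to 244 FPKM (median 196) with pembrolizumab, against 115 to 164 FPKM (median 126) without. Sv2c, a synaptic vesicle glycoprotein in neurons, had 23.1 to 34.5 FPKM (median 28.2) with pembrolizumab, against 5.68 to 21.3 FPKM (median 12.8) without. Their main effects were 0.62 (limma adjusted p = 4.90e-06) and 1.12 (3.55e-04). On the lower side, Cxcl10, a chemokine that attracts activated T cells, had 31.1 to 71.8 FPKM (median 55.0) with pembrolizumab, against 98.5 to 138 FPKM (median 119) without (-1.12, SE 0.11, limma adjusted p = 4.90e-06). Ybx3, Sv2c and Cxcl10 were chosen after their values were seen.

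**Figure D2:**
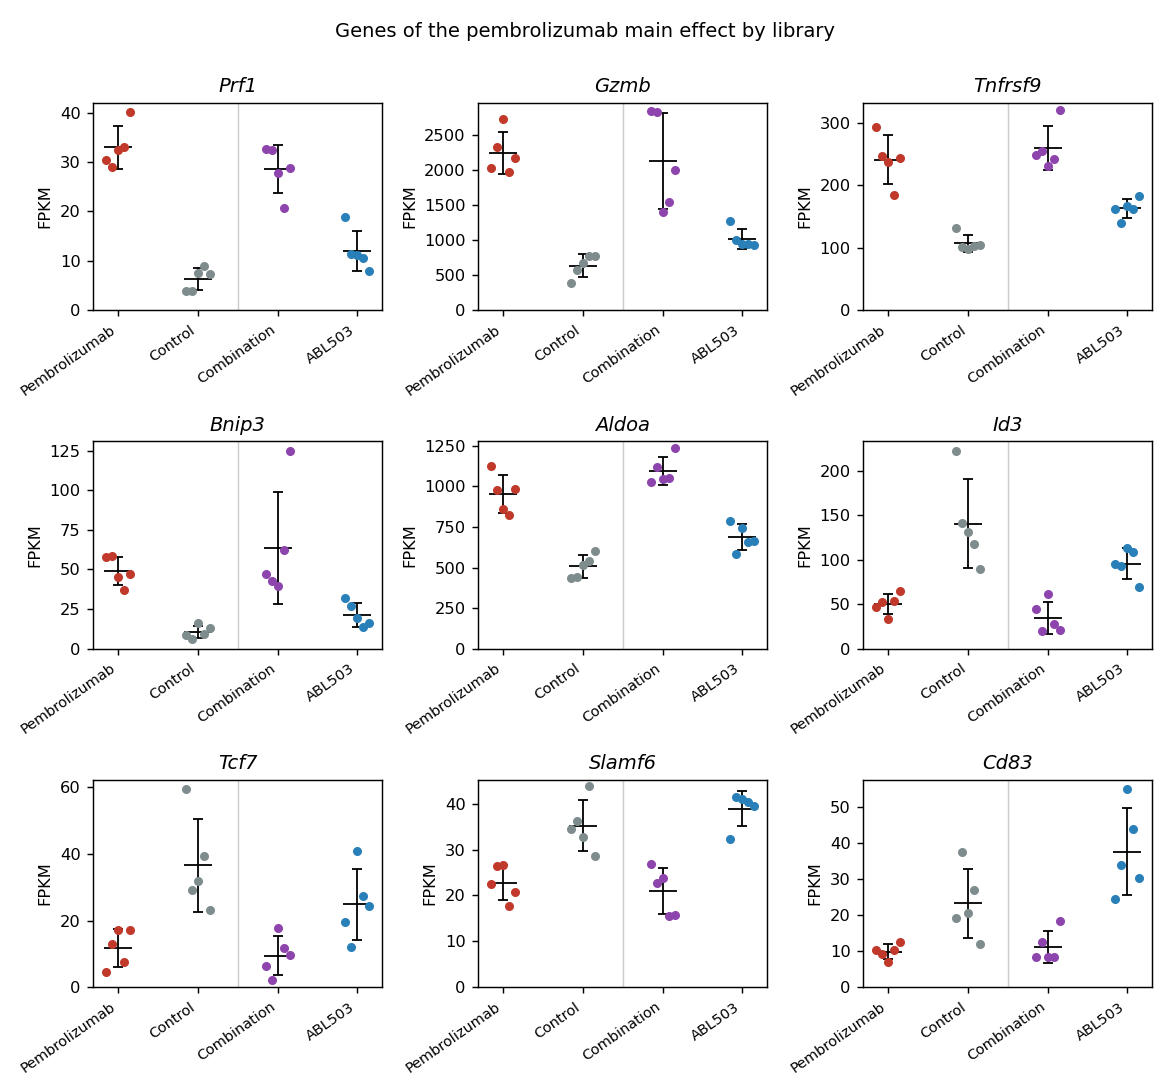
FPKM of 9 genes in each of the 20 libraries, with Pembrolizumab left of Control and Combination left of ABL503 in each panel; points are libraries, and the bar and whiskers are the mean and SD of 5. Prf1, Gzmb, Tnfrsf9, Bnip3 and Aldoa were higher and Id3 and Slamf6 lower in every library with pembrolizumab than in any without, and Tcf7 and Cd83 overlapped in part.

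Of 23 genes of the cytotoxic granule that were tested, 10 rose and 2 fell, with a median change of 0.44. For this and each later list, the shares over all genes tested were 6.22% higher and 7.33% lower in the main effect. Between Pembrolizumab and Control 7 rose and 0 fell, between Combination and ABL503 2 rose and 1 fell, and 0 passed the interaction. Gzma, granzyme A, had 151 to 1134 FPKM (median 514) with pembrolizumab, against 135 to 465 FPKM (median 202.5) without, with overlap (1.18, SE 0.24, limma adjusted p = 0.00314), and between Combination and ABL503 alone it did not pass (0.77, adjusted p = 0.199). Nkg7, a granule membrane protein needed for degranulation, had 6098 to 8340 FPKM (median 7081) with pembrolizumab, against 2763 to 6450 FPKM (median 4819) without, and rose by 0.59 (limma adjusted p = 0.00192). The 2 members that fell were Gzmm, granzyme M (-0.77, limma adjusted p = 0.0331), and Ctsc, the protease that activates granzyme precursors (-0.43, 0.0094), both chosen after their values were seen. The call of Gzmm ended in 9 of 20 fits that left out 1 library (adjusted p up to 0.0637, without ABL503 2). Without Combination 2 the count of rises was 6, as it was without Combination 2 and Combination 5.

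Gzmf, granzyme F, ranged widely and had 10.1 to 244 FPKM (median 82.5) with pembrolizumab, against 0.583 to 104 FPKM (median 27.7) without (1.77, SE 0.51, limma adjusted p = 0.0259). Its change was 3.23 between Pembrolizumab and Control (adjusted p = 0.0119) and 0.31 between Combination and ABL503 (adjusted p = 0.84). Combination libraries held 40.7, 170.9, 10.1, 244 and 90.5 FPKM, against 47.7, 46.8, 58.9, 40.0 and 104 FPKM in ABL503. The interaction did not pass (-2.92, adjusted p = 0.28). Gzmc, granzyme C, gave 0.78 (SE 0.44, limma adjusted p = 0.261) and Gzme, granzyme E, 1.14 (0.0445), and both were chosen after their values were seen. Granzymes C to G are close copies, and how reads shared among them were counted is not given, so the split among these genes is uncertain. The call of Gzmf ended without Combination 2 (adjusted p = 0.0512), and that of Gzme ended in 13 of 20 fits that left out 1 library (adjusted p up to 0.0832, without Combination 2).

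Effector differentiation genes showed 11 rises and 2 falls among 26 tested, with a median change of 0.25. The 2 that fell were the transcription factors Bhlhe40 (-0.41, limma adjusted p = 0.00294) and Tbx21 (-0.43, 0.028). Both were chosen after their values were seen and are left out of the counts of named genes. Between Pembrolizumab and Control 9 rose and 1 fell, between Combination and ABL503 0 rose and 1 fell, and 1 member, Zbtb32, passed the interaction. Irf8, a transcription factor of effector CD8+ cells, had 28.6 to 60.1 FPKM (median 43.2) with pembrolizumab, against 11.7 to 32.0 FPKM (median 22.4) without (1.01, SE 0.12, limma adjusted p = 4.85e-05). Zeb2, a factor of terminal effector cells, rose by 0.59 (limma adjusted p = 0.00191), and Lgals3, a galectin of activated T cells, by 0.44 (0.00249). Between Combination and ABL503 alone Irf8 gave 0.49 (adjusted p = 0.113), Zeb2 0.17 (0.575) and Lgals3 0.27 (0.21). Zbtb32, a transcriptional repressor of the zinc-finger class, rose by 1.40 (SE 0.17, limma adjusted p = 3.60e-05), and its behaviour at the 2 ABL503 levels is described further on. Serpine2, a secreted protease inhibitor outside this list, gave the largest rise among the named genes. It had 14.97 to 94.3 FPKM (median 44.2) with pembrolizumab, against 0.434 to 32.6 FPKM (median 6.44) without (2.80, SE 0.32, limma adjusted p = 2.68e-05). Ly6a2, of the LY6 surface protein family, rose by 2.03 (limma adjusted p = 3.60e-05), and Anxa1, annexin A1, by 1.18 (0.0118). Neither is in the effector list, and Anxa1 counts among the rises of the hypoxia response list.

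Among stem-like, naive and memory genes falls outnumbered rises. Of 28 tested, 11 fell and 2 rose, with a median change of -0.36. The separate comparisons had 4 falls and 0 rises (Pembrolizumab and Control) and 7 falls and 2 rises (Combination and ABL503). Id3, which blocks E-protein transcription factors and is kept by memory precursors, had 19.6 to 65.0 FPKM (median 45.3) with pembrolizumab, against 69.2 to 222.5 FPKM (median 110.3) without, with no overlap (-1.49, SE 0.19, limma adjusted p = 6.39e-05). Tcf7, which encodes TCF1, had 2.10 to 17.8 FPKM (median 10.6) with pembrolizumab, against 12.1 to 59.4 FPKM (median 28.3) without (-1.52, SE 0.29, limma adjusted p = 0.00226). The groups overlapped for Tcf7 through a few libraries, the lowest without pembrolizumab being ABL503 2. Slamf6, a SLAM family receptor used to mark stem-like exhausted cells, had 15.6 to 26.8 FPKM (median 22.6) with pembrolizumab, against 28.6 to 43.8 FPKM (median 37.8) without (-0.75, SE 0.11, limma adjusted p = 1.31e-04). S1pr1, the receptor for exit from tissue, fell by 1.02 (limma adjusted p = 3.41e-04).

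The 2 members of that list that rose were Ly6c1 (0.72, limma adjusted p = 4.07e-04) and Ly6c2 (0.69, 6.03e-04), surface proteins of memory and effector CD8+ cells. Their sequences are near copies, so the division of reads between them is uncertain, and Ly6c2 was chosen after its value was seen. Il7r, the interleukin 7 receptor of memory cells, had 15.15 to 24.9 FPKM (median 20.8) with pembrolizumab, against 14.6 to 47.6 FPKM (median 23.4) without, and did not pass (-0.30, adjusted p = 0.175).

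Checkpoint and exhaustion genes were mixed, with 5 rises and 3 falls among 23 tested and a median change of 0.10. Taken separately, 3 rose and 1 fell between Pembrolizumab and Control, and 1 rose and 2 fell between Combination and ABL503. Havcr2, which encodes TIM-3, had 50.6 to 92.3 FPKM (median 78.8) with pembrolizumab, against 26.9 to 72.0 FPKM (median 58.0) without (0.52, SE 0.10, limma adjusted p = 0.003). Between Pembrolizumab and Control its change was 1.00 (adjusted p = 6.48e-04), and between Combination and ABL503 it was 0.04 (adjusted p = 0.911), while the interaction did not pass (-0.96, adjusted p = 0.0529). Rgs16, a regulator of G-protein signalling, rose by 0.53 (limma adjusted p = 0.00282). Cd7, an immunoglobulin-family receptor of T cells, had 18.99 to 93.5 FPKM (median 59.75) with pembrolizumab, against 105 to 219 FPKM (median 156) without, with no overlap (-1.44, SE 0.19, limma adjusted p = 8.00e-05). Nt5e, the ectoenzyme CD73 that makes adenosine, fell by 0.75 (limma adjusted p = 0.003).

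The PD-1 gene itself, Pdcd1, had 37.5 to 104.5 FPKM (median 60.2) with pembrolizumab, against 26.1 to 88.1 FPKM (median 40.5) without (0.52, SE 0.17, limma adjusted p = 0.0445). Lag3, another checkpoint receptor, gave 0.50 (limma adjusted p = 0.0494), and Tox, a factor of exhausted cells, gave -0.27 (0.491). Pdcd1 changed by 0.12 between Pembrolizumab and Control (limma adjusted p = 0.847) and by 0.92 between Combination and ABL503 (0.0285). Lag3 changed by 0.99 (limma adjusted p = 0.0173) and 0.02 (0.981) in the same comparisons. The interaction passed for neither (limma adjusted p = 0.394 for Pdcd1 and 0.26 for Lag3). The calls of Pdcd1 and Lag3 each ended in 15 of 20 fits that left out 1 library, with adjusted p up to 0.0813 (without Control 1) and 0.0934 (without ABL503 2). Rises in this list numbered 2 without Combination 2, Combination 4, ABL503 3, ABL503 4, Control 1 or Control 3, and 3 without Pembrolizumab 1, 3 or 4, Combination 5, ABL503 2 or Control 2 or 4.

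Among TNF family genes, 1 of 20 tested rose and 6 fell, with a median change of -0.17. Between Pembrolizumab and Control 1 rose and 1 fell, and between Combination and ABL503 1 rose and 4 fell. The riser in the main effect was Tnfrsf9. Tnfsf8, the CD30 ligand, had 1.72 to 7.32 FPKM (median 5.15) with pembrolizumab, against 6.08 to 13.3 FPKM (median 10.04) without (-0.98, SE 0.15, limma adjusted p = 2.20e-04). Tnfrsf26, a receptor of the TNF receptor family, fell by 0.85 (limma adjusted p = 0.00141), and Tnfsf14, the ligand LIGHT, by 0.63 (0.0105). The change of Tnfsf14 was 0.08 between Pembrolizumab and Control (limma adjusted p = 0.883) and -1.34 between Combination and ABL503 (0.00177). Its interaction did not pass (-1.43, limma adjusted p = 0.0529). NF-kB subunits and targets followed with 9 falls and 0 rises among 23 tested and a median of -0.18, with 6 falls and 2 rises between Pembrolizumab and Control and 4 falls and 0 rises between Combination and ABL503. Cd83, a surface protein of activated lymphocytes and dendritic cells, had 6.92 to 18.25 FPKM (median 9.69) with pembrolizumab, against 12.0 to 55.0 FPKM (median 28.5) without (-1.38, SE 0.19, limma adjusted p = 8.77e-05). Tnfaip8 fell by 0.54 (limma adjusted p = 2.70e-04), Tnip1, an inhibitor of NF-kB signalling, by 0.49 (0.00231), and the survival factor Birc3 by 0.37 (0.00364).

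Cytokines and chemokines split into 3 rises and 5 falls among 22 tested, with a median of 0.05, and into 1 rise and 4 falls without Combination 2 and Combination 5. Taken separately, 5 rose and 1 fell between Pembrolizumab and Control, and 0 rose and 4 fell between Combination and ABL503. Il2, the T-cell growth factor interleukin 2, had 0.238 to 3.32 FPKM (median 1.68) with pembrolizumab, against 1.97 to 14.4 FPKM (median 7.75) without (-1.71, SE 0.24, limma adjusted p = 1.17e-04). The groups overlapped through Control 3 at 1.97 FPKM and Control 1 at 3.27 FPKM. Mif, macrophage migration inhibitory factor, rose by 0.48 (limma adjusted p = 0.00136), Ccl9, a chemokine for myeloid cells, rose by 1.19 (0.0108), and Il16 fell by 0.35 (0.0157). Ifng, interferon gamma, had 652 to 1119 FPKM (median 966) with pembrolizumab, against 437 to 978 FPKM (median 771) without, and did not pass (0.33, SE 0.12, limma adjusted p = 0.0645). Il2ra, the alpha chain of the interleukin 2 receptor, rose by 0.65 (limma adjusted p = 0.00595) and was chosen after its value was seen. Its list of cytokine receptors, STAT and SOCS genes had 3 rises and 2 falls among 25 tested (median 0.03), where 6.22% of all genes rose and 7.33% fell.

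Among glycolysis genes 11 of 20 tested rose and 0 fell, with a median change of 0.46. Aldoa, an aldolase, had 824 to 1237 FPKM (median 1038) with pembrolizumab, against 437 to 784 FPKM (median 594) without, with no overlap (0.80, SE 0.07, limma adjusted p = 2.59e-06). Pgk1, phosphoglycerate kinase, had 280.5 to 492 FPKM (median 352) with pembrolizumab, against 170.4 to 329 FPKM (median 229) without (0.66, SE 0.08, limma adjusted p = 4.85e-05). Tpi1, triosephosphate isomerase, rose by 0.80 (limma adjusted p = 8.94e-05), and Ldha, which makes lactate, by 0.58 (1.09e-04). In the separate comparisons 9 rose between Pembrolizumab and Control and 8 between Combination and ABL503.

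In the hypoxia response list 7 of 21 tested rose and 0 fell, with a median change of 0.24 and 4 rises in each of the separate comparisons. Bnip3, a mitophagy receptor induced by low oxygen (chromosome 7, 138890836 to 138909506), had 37.1 to 124.9 FPKM (median 47.1) with pembrolizumab, against 6.38 to 31.7 FPKM (median 14.75) without (1.80, SE 0.20, limma adjusted p = 2.55e-05). No libraries overlapped, and the highest was Combination 5. Plin2, a lipid droplet coat protein, rose by 1.32 (limma adjusted p = 6.05e-04), Fam162a, a hypoxia-induced mitochondrial protein, by 0.68 (0.00105), and Egln1, an oxygen-sensing prolyl hydroxylase, by 0.46 (0.00258). Plin2 also counts in the list of fatty acid oxidation and lipid storage, where 6 of 22 rose and 1 fell (median 0.22). Without ABL503 4 the rises in that list numbered 3.

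Since glycolysis and hypoxia genes rose together, the 250 bases before the start site were read for 3 of them from RefSeq (GRCm38.p6) and searched on both strands for the core letters of the hypoxia response element, ACGTG or GCGTG. Windows were chr7:138909507-138909756 (minus strand) for Bnip3, chrX:106186850-106187099 (plus strand) for Pgk1 and chr6:124814159-124814408 (minus strand) for Tpi1. Matches are in capitals, 5 in Bnip3, 2 in Pgk1 and 0 in Tpi1, and CACGTG in Bnip3 counts on each strand. ACGTG is also part of the E box CACGTG.
Bnip3: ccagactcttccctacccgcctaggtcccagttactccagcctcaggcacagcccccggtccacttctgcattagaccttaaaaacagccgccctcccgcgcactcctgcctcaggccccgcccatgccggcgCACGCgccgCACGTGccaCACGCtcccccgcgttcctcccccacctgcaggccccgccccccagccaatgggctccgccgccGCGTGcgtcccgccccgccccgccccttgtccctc
Pgk1: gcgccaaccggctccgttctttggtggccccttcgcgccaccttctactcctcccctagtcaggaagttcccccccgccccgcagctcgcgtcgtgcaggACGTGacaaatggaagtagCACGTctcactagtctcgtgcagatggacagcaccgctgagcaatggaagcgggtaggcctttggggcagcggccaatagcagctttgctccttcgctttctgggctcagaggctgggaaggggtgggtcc
Tpi1: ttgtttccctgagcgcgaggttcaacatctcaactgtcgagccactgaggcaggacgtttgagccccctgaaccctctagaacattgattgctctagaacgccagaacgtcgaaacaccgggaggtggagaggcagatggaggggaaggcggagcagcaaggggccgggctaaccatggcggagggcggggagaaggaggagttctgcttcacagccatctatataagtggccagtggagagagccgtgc
Such a match was in 8 of the 10 glycolysis genes that rose and have a window, and in 5 of 6 hypoxia genes. Of all 27025 genes with a window, 41.5% have one. Some windows of the table may lie before an alternative start. A match of 5 letters is a description of the sequence, and no match says only that these letters are not in the window.

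Of 50 nuclear genes of oxidative phosphorylation tested, 10 rose and 0 fell, with a median change of 0.14. In the separate comparisons 3 rose between Pembrolizumab and Control and 1 between Combination and ABL503. Ndufb9, a complex I subunit, had 373 to 443 FPKM (median 415) with pembrolizumab, against 240.5 to 415 FPKM (median 335) without (0.35, SE 0.08, limma adjusted p = 0.00585). Sdhc, a complex II subunit, rose by 0.29 (limma adjusted p = 0.00924), Ndufa10 by 0.28 (0.0113) and Cox5a, a complex IV subunit, by 0.31 (0.0118). Of 13 genes encoded in the mitochondrial genome, 0 passed (median -0.02). Without Combination 2 and Combination 5 the nuclear rises numbered 5.

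**Figure D3:**
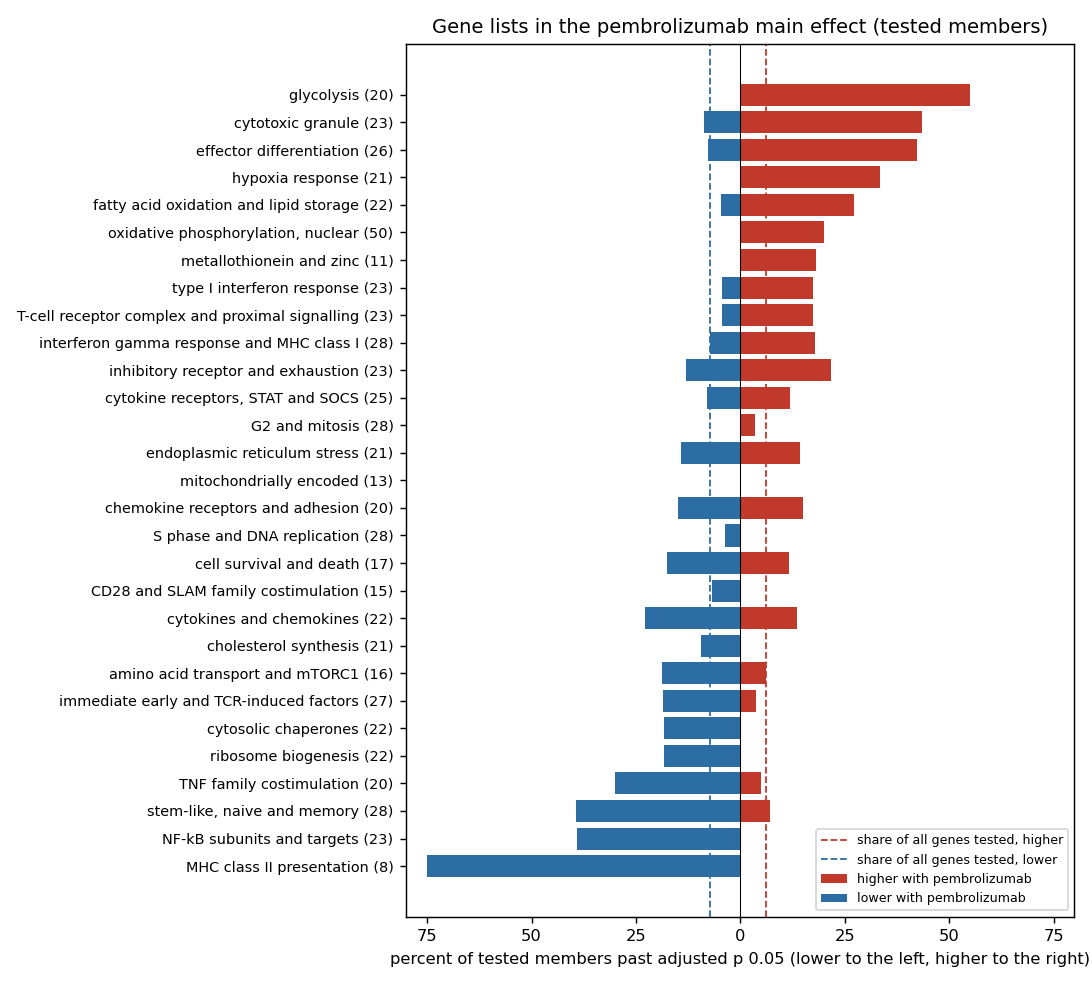
Share of the tested members of each gene list past an adjusted p of 0.05 in the pembrolizumab main effect, in percent, higher to the right and lower to the left; the number tested is in brackets and dashed lines are the shares over all genes tested (6.22% higher, 7.33% lower). Glycolysis, cytotoxic granule and effector lists extend farthest to the right, and MHC class II, NF-kB and stem-like lists farthest to the left.

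Few proliferation genes passed. Of 28 S phase genes 0 rose and 1 fell (median 0.01), and of 28 G2 and mitosis genes 1 rose and 0 fell (median 0.13). The change was above 0 for 25 of the 28 G2 and mitosis genes. Their median was 0.01 between Pembrolizumab and Control and 0.30 between Combination and ABL503, with 0 passing in either. For S phase genes these medians were -0.08 and 0.07. Mki67, a proliferation marker, had 5.06 to 10.3 FPKM (median 7.69) with pembrolizumab, against 4.68 to 9.10 FPKM (median 7.56) without (0.05, SE 0.12, limma adjusted p = 0.832). Ribosome biogenesis genes had 4 falls and 0 rises among 22 (median -0.09), and cholesterol synthesis 2 falls and 0 rises among 21 (median -0.15). Beside these counts, 7.33% of all genes tested fell and 6.22% rose. Amino acid transport and mTORC1 genes had 1 rise and 3 falls among 16 (median -0.14). Cd3e of the T-cell receptor complex did not pass (0.14, limma adjusted p = 0.296) and Cd8a did (0.26, 0.0325). The call of Cd8a ended in 7 of 20 fits that left out 1 library (adjusted p up to 0.0634, without Combination 2). The T-cell receptor list had 4 rises and 1 fall among 23 (median 0.07), and 2 rises without Combination 2, Combination 4, ABL503 2, ABL503 4, Control 1 or Control 4.

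Immediate early and T-cell receptor induced factors had 1 rise and 5 falls among 27 (median -0.20). Nr4a1, a nuclear receptor induced by T-cell receptor signals, had 7.62 to 16.3 FPKM (median 11.8) with pembrolizumab, against 12.0 to 27.5 FPKM (median 19.9) without (-0.64, limma adjusted p = 0.0105). Myc, a growth regulator, gave -0.53 (limma adjusted p = 0.0395), a call that ended in 10 of 20 fits that left out 1 library (adjusted p up to 0.0722, without ABL503 3). Both were picked with their values in view. The falls numbered 3 without Combination 2, 3 without ABL503 3, 8 without ABL503 1, and 0 without Combination 2 and Combination 5 together.

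The type I interferon list had 4 rises and 1 fall among 23 (median 0.02). Its rises included Bst2, a protein that tethers virus particles (0.36, limma adjusted p = 0.00741), and Xaf1 (0.62, 0.00816). The median was -0.21 between Pembrolizumab and Control (0 rises, 2 falls) and 0.26 between Combination and ABL503 (5 rises, 0 falls). Rises in the main effect numbered 2 without Pembrolizumab 3 or 4, Combination 2, 4 or 5, or ABL503 4. The interferon gamma and MHC class I list had 5 rises and 2 falls among 28 (median 0.05), with 3 rises without Combination 2, ABL503 2, ABL503 3 or Control 2 and 8 without Control 5. Mt1 and Mt2, metallothioneins that bind zinc, rose by 0.80 (limma adjusted p = 0.0351) and 1.02 (0.00211), the only members of their list of 11 to pass (median -0.15). The call of Mt1 ended in 8 of 20 fits that left out 1 library (adjusted p up to 0.0673, without Combination 2). Bst2, Xaf1, Mt1 and Mt2 were picked with their values in view. The endoplasmic reticulum stress list had 3 rises and 3 falls among 21 (median -0.04), chemokine receptors and adhesion 3 and 3 among 20 (median 0.03), survival and death 2 and 3 among 17 (median 0.02), and CD28 and SLAM costimulation 0 and 1 among 15 (median 0.01). All genes tested had 6.22% rises and 7.33% falls.

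Falls were also frequent in MHC class II genes, whose products present peptides to CD4+ T cells and are made chiefly by antigen-presenting cells. Of 8 tested, 6 fell and 0 rose, with a median change of -0.96. In the separate comparisons 3 fell between Pembrolizumab and Control and 2 between Combination and ABL503. Cd74, the invariant chain, had 13.9 to 69.3 FPKM (median 35.4) with pembrolizumab, against 67.8 to 197 FPKM (median 105.4) without (-1.72, SE 0.23, limma adjusted p = 8.12e-05). The groups overlapped only through Pembrolizumab 4 and Control 5. H2-Aa, an alpha chain, had 0.872 to 23.8 FPKM (median 5.715) with pembrolizumab, against 4.57 to 69.6 FPKM (median 17.0) without (-1.65, SE 0.40, limma adjusted p = 0.0109). H2-Ab1, its beta chain, fell by 1.41 (limma adjusted p = 0.0102), and H2-DMb2, of the peptide-loading DM complex, fell by 0.62 (0.0106), with medians of 0.685 FPKM with pembrolizumab and 1.48 FPKM without. H2-Eb1 gave -1.30 (limma adjusted p = 0.0273) and H2-Oa, of the DO inhibitor of loading, -0.44 (0.0464), both chosen after their values were seen. Of 20 fits that left out 1 library, the call of H2-Oa ended in 15 (adjusted p up to 0.0873, without Pembrolizumab 1) and that of H2-Eb1 in 3 (up to 0.0538, without Combination 2). H2-Oa fell by 0.92 between Pembrolizumab and Control (adjusted p = 0.012) and gave 0.03 between Combination and ABL503 (0.956).

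Promoters of classical MHC class II genes are known for a Y box, bound by the factor NF-Y, and the 3 members that fell and have a RefSeq window (GRCm38.p6) at the start of the listed gene are shown to compare them for the Y box letters CTGATTGG, searched on both strands. The windows of 250 bases before the start site were chr17:34287824-34288073 (minus strand) for H2-Aa, chr17:34305617-34305866 (plus strand) for H2-Eb1 and chr17:34092129-34092378 (plus strand) for H2-Oa. Capitals mark the match.
H2-Aa: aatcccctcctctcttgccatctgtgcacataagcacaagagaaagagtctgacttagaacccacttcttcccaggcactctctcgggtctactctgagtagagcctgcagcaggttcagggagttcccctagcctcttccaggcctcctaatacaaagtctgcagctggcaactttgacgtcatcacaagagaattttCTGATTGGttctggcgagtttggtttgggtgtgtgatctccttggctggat
H2-Eb1: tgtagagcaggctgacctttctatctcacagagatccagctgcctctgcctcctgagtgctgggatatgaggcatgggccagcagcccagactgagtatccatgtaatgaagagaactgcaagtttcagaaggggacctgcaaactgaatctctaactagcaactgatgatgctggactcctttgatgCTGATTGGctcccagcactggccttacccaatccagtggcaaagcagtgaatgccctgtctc
H2-Oa: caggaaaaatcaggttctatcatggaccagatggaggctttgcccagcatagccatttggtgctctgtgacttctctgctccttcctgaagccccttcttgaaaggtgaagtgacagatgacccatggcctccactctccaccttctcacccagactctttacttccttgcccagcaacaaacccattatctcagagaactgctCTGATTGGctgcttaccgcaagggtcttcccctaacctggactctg
H2-Aa, H2-Eb1 and H2-Oa held the letters, first base 51, 62 and 46 bases before the start site. The RefSeq window of H2-DMb2 lies inside the listed gene, before another start, and is not shown. It did not hold the letters. With H2-DMb2 counted, 3 of the 4 members that fell and have any window held them. Of all 27025 genes with a window, those before alternative starts included, 4.43% have them.

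Markers of myeloid cells were measured beside these genes. Over 16 defining markers of macrophages and dendritic cells, the summed level was 1.56 to 52.2 FPKM with pembrolizumab and 2.12 to 119.7 FPKM without, 5 of the 16 were tested, and 9 were under 1 FPKM in every library. Their mean log2 level was 0.49 with pembrolizumab and 0.65 without (exact stratified permutation test, two-sided, p = 0.302, n = 10 each). Lyz2, the lysozyme of myeloid cells, had 0.848 to 29.85 FPKM (median 3.95) with pembrolizumab, against 0 to 64.9 FPKM (median 12.2) without (-0.83, SE 0.67, limma adjusted p = 0.45), and Tyrobp, an adaptor of myeloid and NK cells, fell by 1.18 (0.0146). The library highest in H2-Aa, Control 3, was also the highest in Lyz2. Lyz2 and Tyrobp were picked after their values were seen. In the list of macrophages and monocytes, 13 genes were tested. Of these, 2 fell, Tyrobp among them, and 1 rose, Ly6c2, which is also in the stem-like list. The mean log2 level of that list did not pass (exact stratified permutation test, adjusted p = 0.292). With the mean of the 16 markers as a covariate, Cd74 changed by -1.60 (limma adjusted p = 1.78e-04), H2-Aa by -1.52 (0.0217) and H2-Ab1 by -1.27 (0.0204).

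Other marker lists moved as well. The neutrophil and mast cell list summed to 0.281 to 2.32 FPKM with pembrolizumab and 0.990 to 17.0 FPKM without (exact stratified permutation test on mean log2, adjusted p = 0.00987, n = 10 each), with Cxcr2 and Mcpt4 at 0 throughout. The B-cell list summed to 40.1 to 349 FPKM with pembrolizumab and 129 to 373 FPKM without (adjusted p = 0.0194, same exact test). The epithelial list summed to 11.8 to 24.2 FPKM with pembrolizumab and 14.7 to 26.4 FPKM without (adjusted p = 0.0184, same exact test), with Krt20 at 0. Lists for macrophages and monocytes, dendritic cells, NK cells, CD4 and regulatory T cells, stroma, and red cells and platelets gave adjusted p from 0.226 to 0.74 in that test. A further covariate was the mean log2 level of the tested genes of the 10 marker lists, pooled. These include the MHC class II genes themselves, and the red cell and platelet list had 0 tested genes. This covariate gave 442 genes in place of 1597. Rises numbered 10 in glycolysis, 4 in the hypoxia list, 3 in the cytotoxic granule list, 6 in effector differentiation and 2 in nuclear oxidative phosphorylation. Falls numbered 3 in the stem-like list, 2 in NF-kB, 3 in TNF family genes, 1 in cytokines and 1 in MHC class II. Checkpoint and exhaustion genes then had 0 rises, fatty acid oxidation 1, type I interferon 1, and immediate early factors 0 falls. Under it Prf1 changed by 1.85 (limma adjusted p = 1.48e-04), Tcf7 by -1.50 (0.0506), Cd74 by -1.11 (0.0218), H2-Aa by -0.60 (0.504) and H2-Ab1 by -0.40 (0.566). The lists also hold genes that T cells express, such as Nkg7 and Il2ra. The part of other cells in these results was not tested further.

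**Figure D4:**
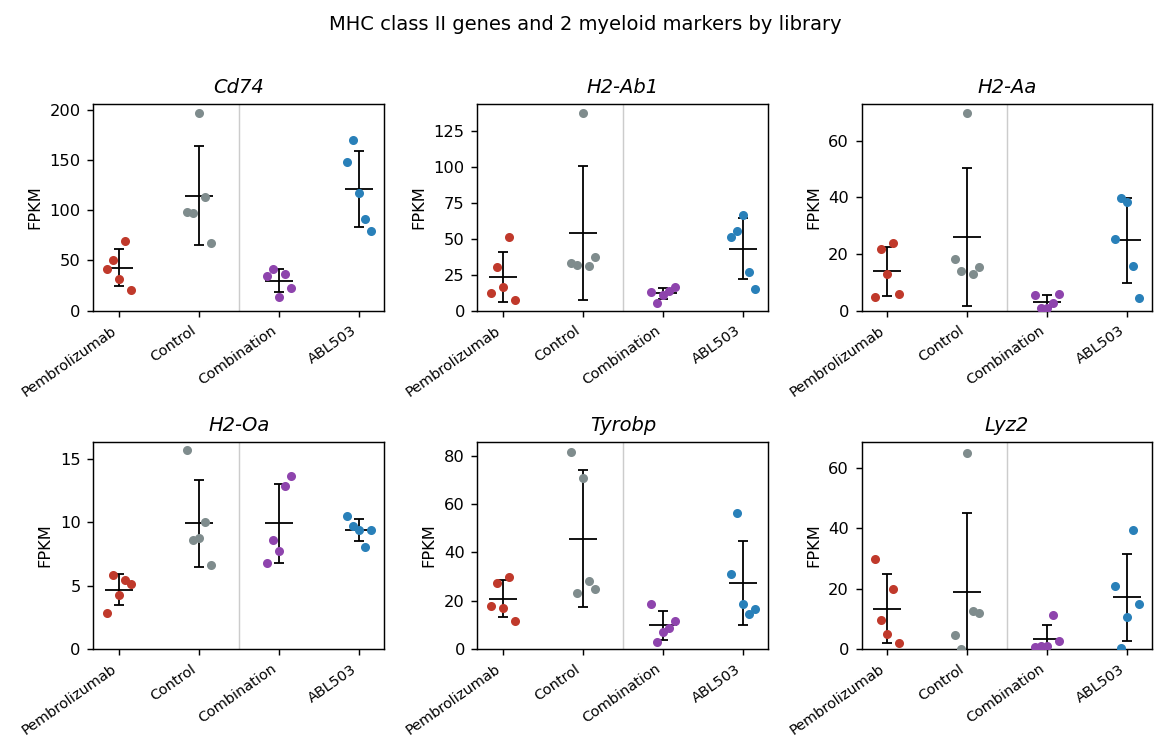
FPKM of 4 MHC class II genes and 2 myeloid markers in each of the 20 libraries, with Pembrolizumab left of Control and Combination left of ABL503; points are libraries, and the bar and whiskers are the mean and SD of 5. Cd74 is 13.9 to 69.3 FPKM with pembrolizumab and 67.8 to 197 without, while Lyz2 reaches 64.9 FPKM in 1 Control library.

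For 24 genes (0.203%) the pembrolizumab change itself differed between the ABL503 levels, 5 more positive (0.0424%) and 19 more negative (0.161%) in Combination minus ABL503 than in Pembrolizumab minus Control. Zbtb32 had 72.5, 57.9, 49.4, 39.1 and 50.5 FPKM in Pembrolizumab, against 6.30, 11.6, 8.28, 10.6 and 6.24 FPKM in Control. In Combination it had 47.1, 40.3, 28.6, 15.7 and 33.8 FPKM, against 27.9, 22.6, 32.7, 27.2 and 19.4 FPKM in ABL503. The first pair of groups did not overlap and the second did. The changes were 2.52 and 0.27, and the interaction was -2.25 (SE 0.33, limma adjusted p = 0.00461).

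Lgals9, galectin 9, a ligand of TIM-3, changed in opposite directions. It had 74.6, 97.3, 89.1, 79.2 and 76.5 FPKM in Pembrolizumab, against 106, 90.2, 125, 109 and 112 FPKM in Control. In Combination it had 125, 134, 133, 158 and 132 FPKM, against 88.0, 93.9, 79.966, 88.7 and 98.6 FPKM in ABL503. Pembrolizumab libraries were mostly lower than Control, and every Combination library was above every ABL503 library (interaction 0.97, SE 0.13, limma adjusted p = 0.00461). Ier3, an immediate early gene, had 78.0, 69.9, 64.1, 59.6 and 81.2 FPKM in Pembrolizumab, against 43.6, 37.2, 35.5, 26.2 and 19.9 FPKM in Control. In Combination it had 32.2, 40.5, 31.9, 32.7 and 28.2 FPKM, against 48.0, 39.7, 46.2, 59.2 and 41.7 FPKM in ABL503 (interaction -1.62, SE 0.23, limma adjusted p = 0.00461).

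Chaperones made up 5 of the 24 interaction genes, all more negative on ABL503. Hsph1, an HSP110 chaperone, had 26.9, 31.1, 37.3, 40.3 and 55.2 FPKM in Pembrolizumab, against 17.6, 15.6, 28.5, 29.5 and 30.8 FPKM in Control. In Combination it had 25.3, 27.4, 18.7, 28.2 and 38.7 FPKM, against 91.4, 117, 76.8, 48.3 and 61.5 FPKM in ABL503. ABL503 libraries were the highest group, all above every Combination library, and the interaction was -2.09 (SE 0.34, limma adjusted p = 0.0119). Hspd1, the mitochondrial chaperonin HSP60, and Hsp90ab1, an HSP90 form, passed in both comparisons with opposite signs: 0.51 and 0.34 between Pembrolizumab and Control, and -0.70 and -0.39 between Combination and ABL503. Hspe1, the partner of HSP60, and Hsp90aa1 had interactions of -1.43 (limma adjusted p = 0.0337) and -0.75 (0.0344). Over the 22 chaperones tested, 2 rose and 1 fell between Pembrolizumab and Control (median 0.12), and 0 rose and 10 fell between Combination and ABL503 (median -0.37). In the main effect 0 rose and 4 fell (median -0.18), Dnajb1, an HSP40 form, among them (-0.41, limma adjusted p = 0.00155).

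Other genes with an interaction included Stat4, a transcription factor of interleukin 12 signalling (0.75, limma adjusted p = 0.0226), the tetraspanin Cd9 (-1.20, 0.0309), the stress factor Nupr1 (-2.6, 0.0344) and Ms4a4a (-1.63, 0.0359). Hspe1, Hsp90aa1, Dnajb1, Stat4, Cd9, Nupr1 and Ms4a4a were picked with their values in view. The count of 24 was sensitive to single libraries. Without Pembrolizumab 1 it was 6, without Pembrolizumab 3 it was 14, without Pembrolizumab 4 it was 49 and without Pembrolizumab 5 it was 7. It was 11 without Combination 2, 7 without Combination 3, 11 without Combination 4, 11 without ABL503 2, 10 without ABL503 5, 12 without Control 3 and 10 without Control 5.

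**Figure D5:**
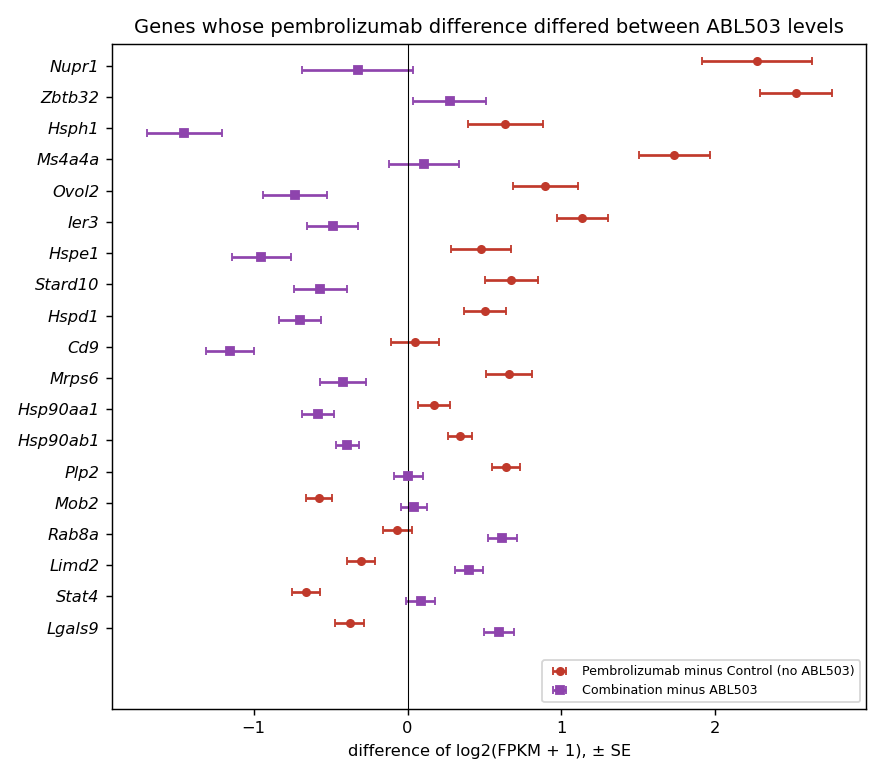
Change with pembrolizumab, as a difference of log2(FPKM + 1) ± SE, for 19 of the 24 genes past an adjusted p of 0.05 for the interaction (predicted gene models left out), without ABL503 (circles, Pembrolizumab minus Control) and on ABL503 (squares, Combination minus ABL503). Zbtb32 is at 2.52 and 0.27, and the chaperones Hsph1, Hspe1, Hspd1, Hsp90aa1 and Hsp90ab1 lie above 0 without ABL503 and below 0 on it.

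To see where the pembrolizumab main effect differs from that of ABL503, the difference of the 2 main effects was tested, which equals Pembrolizumab minus ABL503. It passed for 151 genes (1.28%), 49 more positive (0.415%) and 102 more negative (0.865%) for pembrolizumab. The ABL503 main effect alone passed for 91 genes (0.772%), 80 higher (0.678%) and 11 lower (0.0933%). Gzma gave 2.02 (limma adjusted p = 0.00555), Prf1 1.43 (0.00447), Gzmb 1.14 (0.00609) and Tnfrsf9 0.55 (0.02). On the other side Cd83 gave -1.79 (limma adjusted p = 0.00447), Cd74 -1.53 (0.0224), Il2 -1.51 (0.0313) and Cxcl10 -1.0 (0.00501). Tcf7 did not pass (-1.05, adjusted p = 0.256), nor did Serpine2 (0.97, 0.351) or Tpi1 (0.26, 0.469).

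Further falls came from genes outside the lists. Timp2, an inhibitor of matrix metalloproteinases, had 2.75 to 8.86 FPKM (median 4.13) with pembrolizumab, against 8.95 to 17.35 FPKM (median 13.3) without (-1.32, SE 0.15, limma adjusted p = 2.55e-05). Tsc22d1, a leucine zipper factor, had 1.56 to 7.22 FPKM (median 5.38) with pembrolizumab, against 8.12 to 21.0 FPKM (median 12.9) without (-1.30, SE 0.17, limma adjusted p = 7.67e-05). Both sets of libraries were separate for these genes. Ly6d, a LY6 surface protein of lymphocyte progenitors, fell by 1.46 (limma adjusted p = 0.0232), with overlap.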

How the data were processed

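RNA was measured in 20 libraries of sorted CD8+ tumour-infiltrating T cells; per the labels, cDNA was made with SMART-Seq v4, a kit for low cell numbers. The authors deposited 1 table of FPKM values for 45777 gene symbols. That the unit is FPKM is inferred from the deposited values, which are not whole numbers and whose sums differ between libraries. Per the submitters' processing notes, HISAT2 and StringTie were used on GRCm38 (mm10), and their versions, the annotation and the treatment of shared reads are not given in the sources used here. Whole reads could not be recovered from low values, so no count test was run.

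limma 3.58.1 in R 4.3.3 fitted 4 group means to log2(FPKM + 1) with an intensity trend, two-sided, for genes that reached 1 FPKM in 5 or more libraries, and p-values were adjusted over all 11794 genes (Benjamini-Hochberg). The effect was ((Pembrolizumab minus Control) + (Combination minus ABL503))/2. The steps were tested on simulated data. Named genes were the 10 largest rises and falls that passed whose mean log2(FPKM + 1) was 3 or more, without predicted models, small RNAs or receptor segments, up to 4 members with the smallest p per described list, a panel (Cd8a, Cd3e, Gzmb, Prf1, Ifng, Tcf7, Id3, Havcr2, Lag3, Tox, Pdcd1, Tnfrsf9, Il7r, Mki67, Cd74) and up to 6 interaction genes. Members and lists were chosen with earlier results of these data known. Alternatives were a pseudocount of 0.1, other filters, 2 scalings, array weights, the replicate block, marker covariates, no trend, an additive model and leaving out libraries. Positions and promoter sequences are RefSeq's on GRCm38.p6, where 88.9% of symbols were found. Python 3.11.15, pandas 2.3.3, scipy 1.17.1 and matplotlib 3.10.9 were used.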

Additional observations from a re-analysis of the deposited data

Results flagged for a closer look

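Single libraries stood far from the other 4 of their group in 29 of 364 gene and group pairs examined (Dixon's test, critical value 0.71 for 5 samples), where chance alone flags about 1 in 20. Pembrolizumab 2 held Mt1 at 580 FPKM (nearest other library 344). Pembrolizumab 4 held Ly6a2 at 40.2 FPKM (nearest 14.96) and Birc3 at 26.1 FPKM (nearest 19.6). Pembrolizumab 5 held Hsp90aa1 at 844 FPKM (nearest 690). Combination 2 held Tnip1 at 25.7 FPKM (nearest 37.7). Combination 3 held Nt5e at 11.8 FPKM (nearest 5.87). Combination 4 held Lgals9 at 158 FPKM (nearest 134) and Lyz2 at 11.4 FPKM (nearest 2.77). Combination 5 held Bnip3 at 125 FPKM (nearest 62.5), Tnfrsf9 at 320 FPKM (nearest 255) and Pgk1 at 492 FPKM (nearest 373). ABL503 1 held Gzmb at 1270 FPKM (nearest 1007.1), Slamf6 at 32.4 FPKM (nearest 39.5) and Pgk1 at 329 FPKM (nearest 258). The same library held Fam162a at 184 FPKM (nearest 136) and Egln1 at 12.7 FPKM (nearest 9.19). ABL503 2 held Gzma at 465 FPKM (nearest 202) and Ly6d at 75.2 FPKM (nearest 15.7). ABL503 3 held Myc at 46.5 FPKM (nearest 29.8). ABL503 4 held Tox at 7.64 FPKM (nearest 5.62). Control 1 held Tnfrsf9 at 131 FPKM (nearest 104), Ndufb9 at 240 FPKM (nearest 325) and Gzme at 1.18 FPKM (nearest 0.049). Control 2 held Serpine2 at 6.42 FPKM (nearest 1.52) and Gzmc at 167 FPKM (nearest 29.3). Control 3 held H2-Aa at 69.6 FPKM (nearest 18.2), H2-Ab1 at 138 FPKM (nearest 37.3) and H2-Eb1 at 39.4 FPKM (nearest 11.0). The same library held Lyz2 at 64.9 FPKM (nearest 12.7).

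The change with pembrolizumab differed between the 2 ABL503 levels, by the interaction test in limma, for 12 named genes. Cd9 gave -1.2 (adjusted p = 0.0309), from -1.15 on ABL503 and 0.05 without it. Hsph1 gave -2.09 (adjusted p = 0.0119), from -1.45 on ABL503 and 0.63 without it. Hspd1 gave -1.2 (adjusted p = 0.00884), from -0.70 on ABL503 and 0.51 without it. Hsp90ab1 gave -0.73 (adjusted p = 0.00461), from -0.39 on ABL503 and 0.34 without it. Hsp90aa1 gave -0.75 (adjusted p = 0.0344), from -0.58 on ABL503 and 0.17 without it. Hspe1 gave -1.43 (adjusted p = 0.0337), from -0.95 on ABL503 and 0.48 without it. Ier3 gave -1.62 (adjusted p = 0.00461), from -0.49 on ABL503 and 1.14 without it. Lgals9 gave 0.97 (adjusted p = 0.00461), from 0.60 on ABL503 and -0.38 without it. Stat4 gave 0.75 (adjusted p = 0.0226), from 0.08 on ABL503 and -0.66 without it. Nupr1 gave -2.6 (adjusted p = 0.0344), from -0.32 on ABL503 and 2.27 without it. Zbtb32 gave -2.25 (adjusted p = 0.00461), from 0.27 on ABL503 and 2.52 without it. Ms4a4a gave -1.63 (adjusted p = 0.0359), from 0.11 on ABL503 and 1.74 without it.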

How the results depend on the processing

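No named gene that passed in the main effect reversed sign there under the alternatives run. Of those that did not pass, Lyz2 gave 1.25 (adjusted p = 0.306) with the covariate of all marker lists, Mki67 -0.01 (0.98) without Control 2 and Hsp90ab1 0.01 (0.962) without Control 1 and ABL503 3, none past the threshold. Of 77 named genes that passed in the main effect, 67 passed in all 20 fits that left out 1 library. Many of the 77 were named for a large change or small p in that same effect, so this says little about its other calls. Leaving out 1 library gave 1230 to 1789 genes for the main effect, 383 to 710 for Pembrolizumab against Control, 271 to 752 for Combination against ABL503 and 6 to 49 for the interaction. With no filter, which tests 31149 genes, these counts were 997, 321, 271 and 6. With the covariate of all marker lists, the first 3 were 442, 398 and 63. Without Combination 2 and Combination 5, chosen after seeing the data, they were 868 for the main effect, 124 for Combination against ABL503 and 39 for the interaction. Array weights gave 935 for Combination against ABL503 and 50 for the interaction. The interaction count was also 38 when 10 libraries had to reach 1 FPKM, 7 with no intensity trend and 7 without Control 1 and ABL503 3. Without Combination 2 and Combination 5, 15 named calls ended: Gzmf, Anxa1, Ly6d, Ccl9, Il16, Cd8a, Lag3, Pdcd1, Gzme, Gzmm, H2-Eb1, H2-Oa, Mt1, Nr4a1 and Myc. With the covariate of all marker lists 34 ended, among them Tcf7, H2-Aa, H2-Ab1, Nkg7 and Havcr2. The causes were not tested.

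With the replicate number as a block the counts were 1483, 617, 512 and 16, and the calls of Lag3, Pdcd1 and H2-Oa in the main effect were lost. Same-numbered libraries had correlations of their deviations from group means from -0.146 to 0.107, over 0.1 in 2 of 30 pairs. Differently numbered libraries had -0.116 to 0.168, and 5 of 20 libraries correlated best with their own number. Weak correlations cannot decide whether the numbers pair libraries. The median change of all genes was -0.001 after quantile normalization, which gave 839 rises and 722 falls, and -0.067 after rescaling to equal sums. The covariate of myeloid markers, chosen after seeing the data, gave 1470 genes and ended the calls of Pdcd1, Gzme, H2-Eb1, H2-Oa and Myc. Read depth is not known, so what it limits could not be measured.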
